A study of Mus musculus with 20 samples.

Results

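The cecum of mice fed the middle level of raw potato starch (RPS) was compared with the cecum of mice at both ends of the dose range, to look for transcripts that were highest or lowest at the middle dose. The comparison was the mean log2 level with 5% RPS minus the average of the means with 0 and 10% RPS, so that a value above 0 places the mice fed 5% RPS above the midpoint of the extremes. It used 15 of the 20 mice, 5 fed 5% RPS against 5 fed 0% and 5 fed 10% RPS, and the 5 mice fed 2% RPS entered the filter on low counts, the scaling, and the estimate of spread, but not the comparison. All mice were C57BL/6, were weaned at 3 to 4 weeks of age onto the Total Western Diet (TWD), ate it for 6 weeks, and then stayed on the TWD alone (0% RPS) or received the TWD with 2, 5, or 10% RPS (w/w) for another 3 weeks. The TWD is a rodent diet built to match the nutrient intake of people in the United States, so the controls carried the same background diet as the starch-fed mice. RNA came from sections of the emptied cecum, and in bulk tissue fewer cells of a type and less RNA per cell cannot be told apart. P values from the models measure the spread between mice, which the labels number as separate animals.

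Raw potato starch is a resistant starch that escapes digestion in the small intestine and is fermented by bacteria in the cecum, where short-chain fatty acids such as butyrate are formed and used as fuel by the epithelium. The cecal wall holds an epithelium of absorptive, goblet, and enteroendocrine cells, a lamina propria with immune cells and fibroblasts, lymphoid follicles, and layers of smooth muscle. Dose responses in such tissue can rise steadily, level off, or turn back at higher doses, and the comparison used here reads the curvature of the response rather than its slope.

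Total counts were between 14967798 and 42687283 reads per mouse, and the smallest library was mouse 3 on 5% RPS. The median tested gene had 514.1 reads per mouse. All 12 sets of cell type markers examined had reads in these 15 mice for every member found in the deposited counts, including absorptive colonocyte, goblet cell, smooth muscle, enteric neuron, and B cell genes. Some of these members did not pass the filter on low counts. Total counts, the shares of reads on mitochondrially encoded, immunoglobulin, and hemoglobin genes, and the summed level of each of the 12 marker sets gave 16 measures per mouse. The lowest two-sided exact permutation p among them was 0.0230, for the collagen and fibroblast set, and it became 0.368 after Benjamini-Hochberg adjustment over the 16 measures.

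No gene passed the threshold of an adjusted p of at most 0.05 and a 1.5-fold difference in either direction in edgeR's quasi-likelihood test, which is 0% of the 15348 genes tested, and none passed with the fold criterion removed. The lowest adjusted p was 0.660, which 4 genes shared. At an unadjusted p under 0.05 there were 453 genes with a higher estimate with 5% RPS (2.95%) and 282 with a lower one (1.84%), together 735 genes (4.79%), where 767.4 would be found if no gene differed and the p values were uniform. DESeq2's Wald test of the same comparison, with its own scaling and filter, placed 3 genes past the threshold as higher (Pla2g4c, Aspn, and Nags) and 3 as lower (Olr1, B3galt5, and Ly6g), with a lowest adjusted p of 0.0243. All genes named below therefore carry estimates that did not pass the edgeR threshold for this comparison. The median standard error of the log2 comparison over all genes was 0.128.

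The fitted mean with 5% RPS lay above both extremes in 3946 genes (25.7%), below both in 4069 (26.5%), and between them in 7333 (47.8%). Each extreme was then compared with 5% RPS on its own, and these comparisons share the 5 mice fed 5% RPS. Against 10% RPS, 0 of the 15348 genes passed the edgeR threshold (0%), with a lowest adjusted p of 0.9998, and 428 genes (2.79%) had an unadjusted p under 0.05. Against 0% RPS, 30 genes passed (0.195%). A higher estimate with 5% RPS than with each extreme, at an unadjusted p under 0.05 for both, was found in 35 genes (0.228%), and a lower one in 16 genes (0.104%). When the larger of the p values of each gene was adjusted over all genes, the lowest adjusted p was 1.

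Complete separation of the mice was rarer. In 4 genes (0.0261%) every mouse fed 5% RPS lay above every mouse fed 0 or 10% RPS, and in 2 genes (0.013%) every one lay below. The 4 genes were Aspn, Efemp1, Hsd11b1, and 1700102P08Rik, and the 2 were Ly6g and Hivep3. Among these, Hsd11b1, which encodes the enzyme that regenerates active glucocorticoid inside cells, averaged 0.578 ± 0.219 CPM (reads scaled to the library size, here by the trimmed mean of M values, TMM) with 5% RPS, 0.298 ± 0.0752 CPM with 0%, and 0.2498 ± 0.0827 CPM with 10% (SD, n = 5 each). These Hsd11b1 levels are low, so few reads separate the mice. Hivep3, a zinc finger transcription factor gene, averaged 16.6 ± 0.766 CPM with 5% RPS, against 18.8 ± 0.734 CPM with 0% and 19.0 ± 0.919 CPM with 10%, so the separation there was narrow.

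The peak with the smallest p was Pla2g4c, which encodes a cytosolic phospholipase A2 (chromosome 7, 13058496 to 13094597, plus strand, GRCm39). The mice fed 5% RPS had 1.45, 2.65, 6.28, 7.11, and 3.06 CPM, those fed 0% RPS had 1.497, 1.59, 2.03, 1.18, and 0.9754 CPM, and those fed 10% RPS had 1.64, 1.24, 1.83, 1.84, and 1.73 CPM. Mice 3 and 4 on 5% RPS stood well above the rest, mouse 1 on 5% RPS lay within the range of both extremes, and the extremes covered the same low range. The log2 comparison was 1.40 (95% interval 0.82 to 1.98, edgeR adjusted p = 0.660). It passed the threshold when mouse 1 on 5% RPS was left out, with an edgeR adjusted p of 0.0383.

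Aspn and Efemp1 both encode proteins of the extracellular matrix, asporin and fibulin-3. For Aspn the mice fed 5% RPS had 2.93, 2.25, 3.43, 2.86, and 3.35 CPM, those fed 0% RPS 1.37, 1.63, 1.31, 1.07, and 2.07 CPM, and those fed 10% RPS 2.23, 1.57, 1.23, 1.27, and 1.20 CPM. The highest mouse at the extremes (10% RPS, mouse 1) nearly reached the lowest mouse fed 5% RPS, and the difference between 10 and 0% RPS was 0.01 on the log2 scale. For Aspn the log2 comparison was 0.98 (95% interval 0.55 to 1.40, edgeR adjusted p = 0.660). Efemp1 had 19.9, 23.1, 19.3, 22.6, and 27.3 CPM with 5% RPS, 18.8, 14.6, 15.5, 15.01, and 11.2 CPM with 0% RPS, and 14.4, 17.5, 19.2, 14.0, and 13.3 CPM with 10% RPS. The groups for Efemp1 did not overlap, although the gap to the highest mouse fed 10% RPS was small, and the log2 comparison was 0.55 (95% interval 0.30 to 0.79, edgeR adjusted p = 0.660).

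Nags, which encodes the mitochondrial N-acetylglutamate synthase that feeds the urea cycle, showed another shape. The mice fed 0% RPS had 3.03, 3.27, 2.70, 3.56, and 3.01 CPM, those fed 5% RPS had 7.23, 8.06, 7.55, 8.02, and 9.85 CPM, and those fed 10% RPS had 4.36, 9.94, 9.89, 5.56, and 6.79 CPM. The mice fed 5% RPS were all above the controls and within the wide range of the mice fed 10% RPS. The rise over 0% RPS passed the threshold (log2 difference 1.39, edgeR adjusted p = 0.00845), and the log2 difference from 10% RPS was 0.15. Its log2 comparison with the midpoint, 0.77 (95% interval 0.42 to 1.12), therefore came from a response that had reached the level of the highest dose by 5% RPS.

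Casq2, the cardiac calsequestrin that stores calcium in the sarcoplasmic reticulum, and Ldb3, a Z-disc protein of muscle, also had their highest fitted means with 5% RPS. For Casq2 the mice fed 5% RPS had 4.79, 4.72, 5.14, 5.73, and 6.97 CPM, all above the controls (2.06 to 3.42 CPM) and overlapping with mice 1 and 3 on 10% RPS (4.78 and 4.90 CPM). Casq2 rose over 0% RPS (edgeR adjusted p = 0.0434), and its log2 comparison with the midpoint was 0.75 ± 0.17 (SE). Ldb3 rose over 0% RPS as well (edgeR adjusted p = 0.0425), with a log2 comparison of 0.59 ± 0.16 (SE). Ldb3 ranged from 13.8 to 23.3 CPM with 5% RPS and from 9.80 to 19.5 CPM with 10% RPS, so these groups overlapped.

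The other peaks by the naming rule belonged to immunity, the epithelium, and cilia. Clec4a1, a C-type lectin receptor of myeloid cells, had 1.64, 2.27, 2.03, 2.27, and 2.12 CPM with 5% RPS, against 0.638 to 1.33 CPM with 0% and 1.33 to 2.13 CPM with 10% RPS. Ighv1-82, an immunoglobulin heavy chain variable segment, had 2.05, 2.33, 5.90, 2.83, and 2.87 CPM with 5% RPS, and only mouse 3 on 10% RPS, at 4.65 CPM, exceeded 1.22 CPM among the extremes. Leaving that mouse out brought Ighv1-82 past the threshold, with a log2 comparison of 2.12 and an edgeR adjusted p of 0.0350. Reads of such segments can be shared with near-identical members of the family, and their levels are uncertain for that reason. Ttll9, a tubulin polyglutamylase gene, ranged from 6.53 to 15.7 CPM with 5% RPS, from 2.38 to 4.65 CPM with 0%, and from 3.35 to 11.2 CPM with 10%. Mptx1, a mucosal pentraxin, had 4.90, 22.6, 7.30, 50.5, and 14.4 CPM with 5% RPS and at most 9.13 CPM at the extremes, and its log2 comparison of 1.82 leaned on mice 4, 2, and 5.

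**Figure D1:**
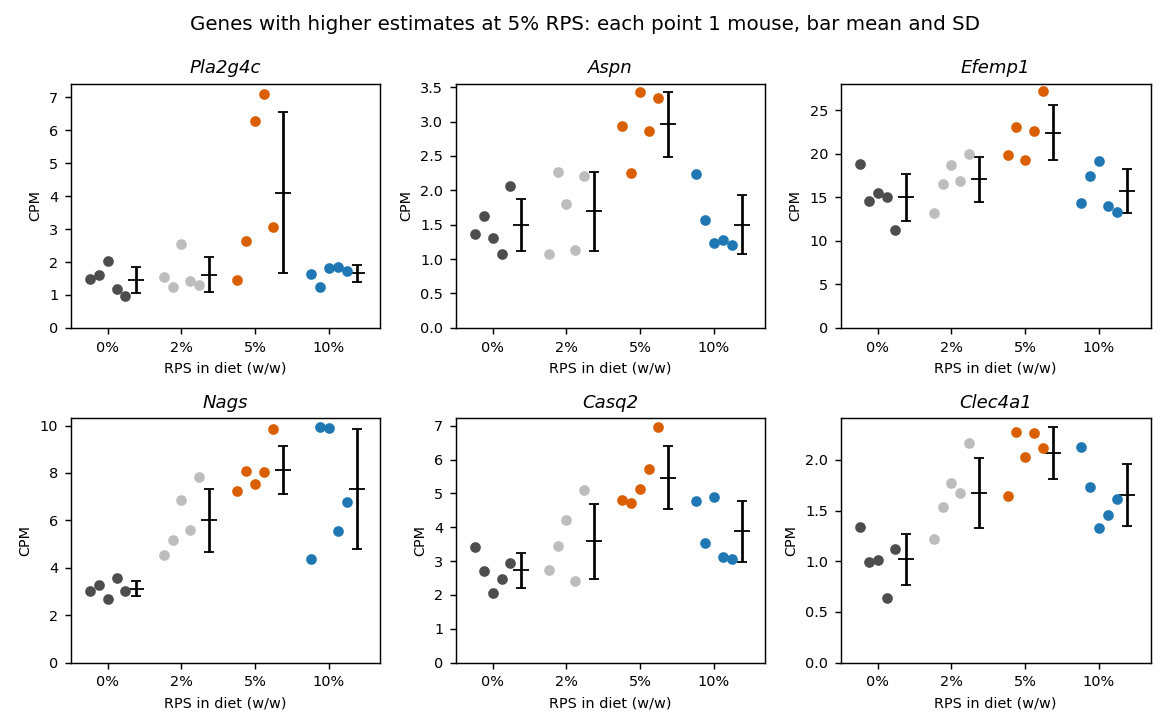
CPM (reads scaled to the library size by TMM) of 6 genes in each mouse by the RPS level of the diet, with the mean and SD of the 5 mice beside the points. Aspn and Efemp1 return to the control level with 10% RPS, while Nags and Casq2 stay above it in several mice.

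Among the dips, Olr1, the gene of the oxidized low-density lipoprotein receptor LOX-1, had the smallest p. The mice fed 0% RPS had 7.06, 4.70, 7.88, 5.14, and 2.98 CPM, those fed 5% RPS 1.21, 1.64, 0.952, 0.787, and 0.848 CPM, and those fed 10% RPS 0.906, 0.878, 1.30, 1.93, and 2.21 CPM. Every mouse fed 5 or 10% RPS was below every control, and the 5 and 10% groups overlapped. Olr1 fell against 0% RPS (log2 difference -2.33, edgeR adjusted p = 0.00845), and its log2 comparison with the midpoint was -1.36 (95% interval -1.995 to -0.72, edgeR adjusted p = 0.779).

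B3galt5, a galactosyltransferase that builds type 1 glycan chains on epithelial glycoproteins, had 53.4, 21.7, 32.0, 16.6, and 15.03 CPM with 5% RPS. The controls had 212, 227, 229, 121, and 102 CPM, and the mice fed 10% RPS had 20.5, 46.1, 52.2, 134, and 61.4 CPM. On 10% RPS, mouse 4 lay within the control range, mouse 5 just above the 5% group, and mice 1 to 3 within the 5% group. B3galt5 fell against 0% RPS (log2 difference -2.68, edgeR adjusted p = 0.0425) and had a log2 comparison of -1.93 (95% interval -2.90 to -0.95, edgeR adjusted p = 0.922). Apoa4, an apolipoprotein of intestinal lipid transport, had 2.57, 1.95, 2.36, 2.15, and 1.95 CPM in the controls, 0.301, 0.0576, 0.127, 0.126, and 0.0471 CPM with 5% RPS, and 0.209, 0.0258, 0.126, 0.754, and 0.113 CPM with 10% RPS. These low values are 1 to 11 reads per mouse with 5% RPS and 1 to 16 reads with 10% RPS, so the order of the starch doses for Apoa4 was not resolved at this depth, whereas the fall against 0% RPS passed the threshold (log2 difference -3.95, edgeR adjusted p = 0.0130).

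Defb37, a beta-defensin gene, had 0.329, 0.230, 0.254, 0.283, and 0.188 CPM with 5% RPS (4 to 12 reads), 0.660 to 1.11 CPM in the controls, and 0.209 to 1.08 CPM with 10% RPS. Only mouse 1 on 10% RPS was within the range of the 5% group. Ly6g, a surface marker of neutrophils, had 0.247, 0.115, 0, 0.315, and 0.188 CPM with 5% RPS, which is 0 to 10 reads per mouse, against 16.3, 2.07, 0.638, 7.55, and 2.07 CPM with 0% RPS and 0.453, 1.08, 0.348, 1.70, and 0.750 CPM with 10% RPS. The groups for Ly6g did not overlap, but the gap between 0.315 and 0.348 CPM is a difference of few reads, and the wide spread of the controls gave a standard error of 0.96 around the log2 comparison of -3.54. Csf3r, another neutrophil gene, had a log2 comparison of -0.04 ± 0.34 (SE). S100a8, S100a9, Cxcr2, Retnlg, and Mpo did not pass the filter on low counts. Fer1l4, a member of the ferlin family, ranged from 0.220 to 1.59 CPM with 5% RPS, from 2.61 to 4.40 CPM with 0%, and from 0.474 to 3.59 CPM with 10%.

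The other dips by the naming rule were Slc7a7, Cyp2j6, Acp5, and Phldb2. Slc7a7, a transporter of cationic amino acids, averaged 21.2 ± 1.57 CPM with 5% RPS, 28.3 ± 2.83 CPM with 0%, and 23.1 ± 1.51 CPM with 10% (SD). Its log2 comparison was -0.27 ± 0.07 (SE). Cyp2j6, a cytochrome P450 of arachidonic acid metabolism, averaged 155.9 ± 21.7 CPM with 5% RPS, 227 ± 18.01 CPM with 0%, and 165 ± 22.2 CPM with 10%. Acp5, tartrate-resistant acid phosphatase, and Phldb2, a protein of the cell cortex, had log2 comparisons of -0.25 and -0.50. In all of Slc7a7, Cyp2j6, Acp5, and Phldb2 the difference from 0% RPS had an edgeR adjusted p between 0.0377 and 0.0434, and the mice fed 5 and 10% RPS overlapped.

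**Figure D2:**
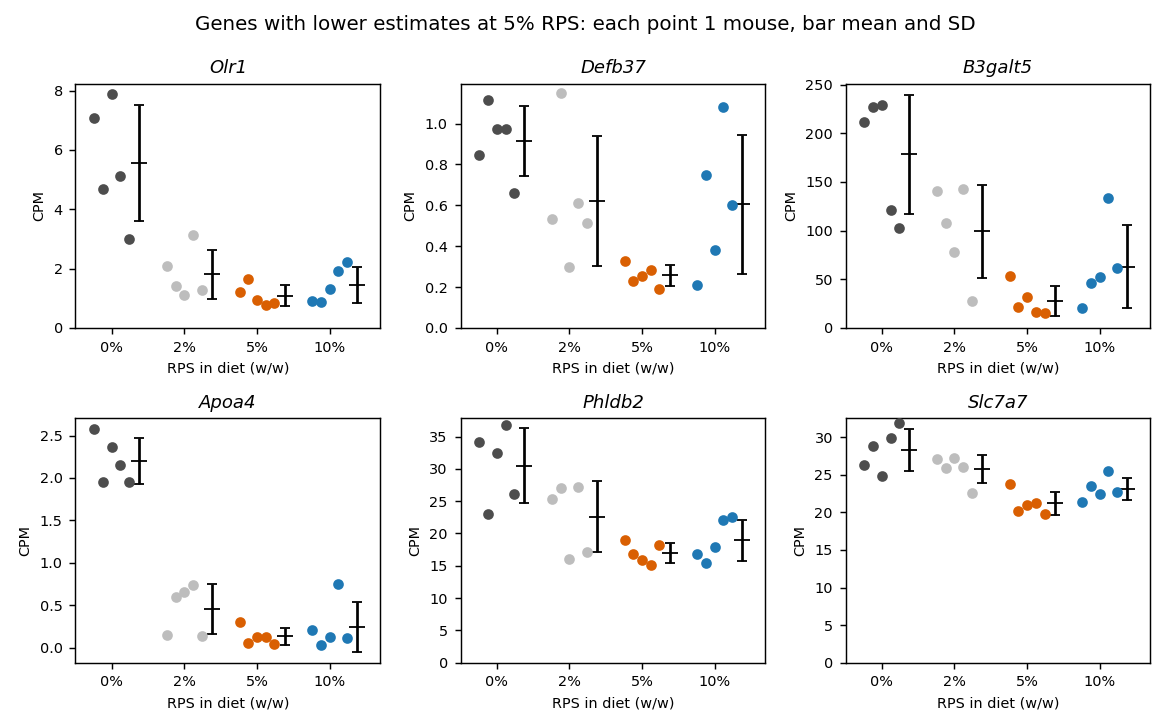
CPM of 6 genes with lower estimates in mice fed 5% RPS, for each mouse by the RPS level of the diet, with the mean and SD of 5 mice. For Olr1, Apoa4, and Phldb2 the mice fed 10% RPS overlap those fed 5% RPS, and the controls sit above both.

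To describe the course of the response between the extremes, the 160 genes past the threshold for 10 against 0% RPS (1.04%, 84 higher and 76 lower with 10% RPS) were placed on the line from the 0% mean to the 10% mean. These genes were chosen on the mice of the extremes, which also enter the comparison with 5% RPS, so their positions are a description. With 5% RPS, 143 of the 160 genes had covered more than 50% of the log2 distance, 73 of the 84 higher genes and 70 of the 76 lower genes. Over all genes tested, 9258 of 15348 had done so. The median gene had covered 80.9% (quartiles 64.9 and 94.99%), and 27 genes went beyond the 10% mean. An unadjusted p under 0.05 for the comparison with the midpoint was found in 59 of the 160 genes (36.9%, against 4.79% of all genes), and all 59 were past the midpoint on the side of 10% RPS. The median distance past the midpoint, signed toward 10% RPS, was 0.29 on the log2 scale, and it ranged from 0.21 to 0.32 over the fits that each lacked 1 mouse.

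**Figure D3:**
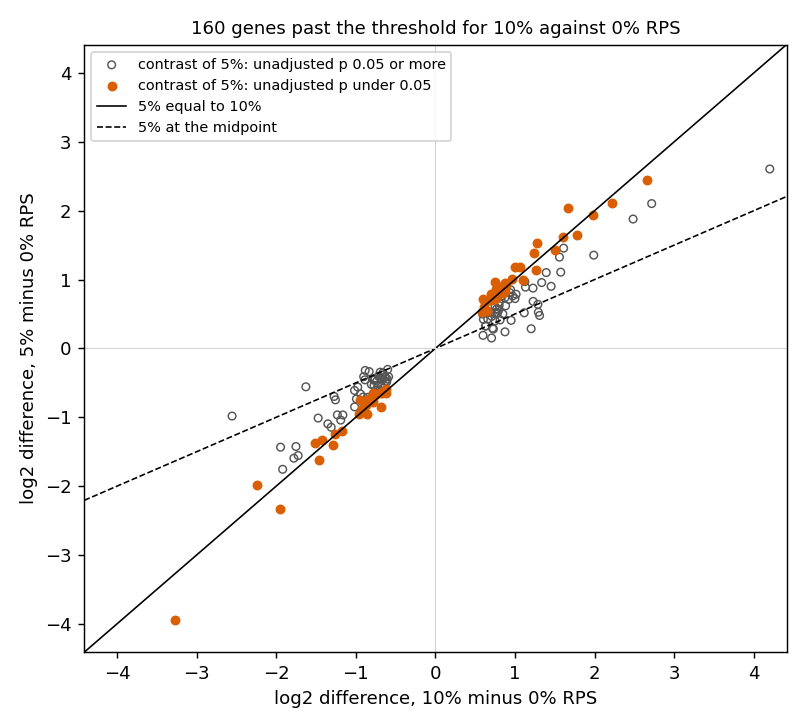
For the 160 genes past the threshold for 10 against 0% RPS, the log2 difference of 5 from 0% RPS (vertical axis) is plotted against that of 10 from 0% RPS (horizontal axis), 1 point per gene. Points on the dashed line are at the midpoint and points on the solid line equal the 10% level, and 143 of the 160 points lie farther from 0 than the dashed line.

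Genes whose 5% mean lay between the extremes but away from the midpoint had the same form. Rbp2, a retinol-binding protein of absorptive cells, had 54.8, 50.6, 73.3, 47.2, and 48.7 CPM with 0% RPS, 27.7, 21.9, 23.9, 19.8, and 22.9 CPM with 5% RPS, and 16.9, 24.3, 17.2, 36.6, and 20.1 CPM with 10% RPS. Rbp2 fell against 0% RPS by 1.24 on the log2 scale (edgeR adjusted p = 0.0297), and the difference of 5 from 10% RPS was 0.02. Stc1, the hormone stanniocalcin, averaged 8.997 ± 2.09 CPM with 0%, 2.25 ± 1.14 CPM with 5%, and 1.92 ± 0.735 CPM with 10% RPS. Plin2 and Dgat2, which coat lipid droplets and make triglyceride, and Ier3, an immediate early gene, had log2 differences of 0.02, 0.02, and 0.11 between 5 and 10% RPS, against -0.62, -0.92, and -0.87 between 10 and 0% RPS.

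The genes higher in this way were led by Cyp4f15, a cytochrome P450 that hydroxylates fatty acids. It had 2.70, 1.59, 1.84, 4.16, and 2.38 CPM with 0% RPS, 4.30, 8.44, 12.7, 13.1, and 16.6 CPM with 5% RPS, and 16.3, 20.1, 14.3, 2.87, and 5.48 CPM with 10% RPS. All mice fed 5% RPS were above all controls, and mice 4 and 5 on 10% RPS were near the controls while mice 1 to 3 were not. Igfbp2, an insulin-like growth factor binding protein, averaged 1.40 ± 0.626 CPM with 0%, 5.47 ± 3.67 CPM with 5%, and 5.57 ± 1.82 CPM with 10% RPS. H2-T9 (a nonclassical MHC class I gene), Tm7sf3, and Cfap65 (a cilium protein) differed between 5 and 10% RPS by -0.00, -0.01, and -0.12 on the log2 scale.

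Of the 32 gene lists examined, the genes of the contractile apparatus of smooth muscle had the most members at an unadjusted p under 0.05 with a higher estimate with 5% RPS. All 20 members had a value above 0 (47.1% of all genes) and 18 had a fitted mean above both extremes (25.7% of all genes), with 13 at an unadjusted p under 0.05 (2.95% of all genes) and 0 past the edgeR threshold. The median log2 comparison was 0.45, against -0.01 over all genes tested. The median log2 difference from 0% RPS was 0.75 and that from 10% RPS was 0.20. Actg2, the gamma actin of enteric smooth muscle, had 461, 486, 1081, 1297, and 1099 CPM with 5% RPS, 395, 245, 262, 298, and 337 CPM with 0% RPS, and 899, 886, 1004, 380, and 555 CPM with 10% RPS. Every mouse fed 5% RPS exceeded every control, Actg2 rose over 0% RPS (log2 difference 1.53, edgeR adjusted p = 0.0425), and mice 4 and 5 on 10% RPS were the lowest of their group.

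Des encodes desmin, the intermediate filament of muscle, and had 383, 440, 740, 1598, and 722 CPM with 5% RPS, 328, 213, 233, 257, and 515 CPM with 0% RPS, and 675, 737, 798, 377, and 439 CPM with 10% RPS. Mouse 4 on 5% RPS was above all others, and the other mice fed 5% RPS lay within the range of the 10% group. Cnn1, the gene of calponin, averaged 555 ± 240.2 CPM with 5% RPS, 260.4 ± 74.3 CPM with 0%, and 473 ± 127 CPM with 10%, with a log2 comparison of 0.66 ± 0.22 (SE). The 7 members at an unadjusted p of 0.05 or more were Myh11, Lmod1, Synm, Myocd, Pgm5, Kcnmb1, and Hspb6. Synm and Pgm5 had fitted means between the extremes.

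The summed level of the smooth muscle genes was 6462, 7004, 9829, 14052, and 10862 CPM with 5% RPS, 5133, 3911, 5281, 4526, and 8841 CPM with 0% RPS, and 8966, 8860, 10166, 6319, and 7118 CPM with 10% RPS. Mouse 4 on 5% RPS was the highest, and the groups overlapped. The sum differed by 2729 CPM between the 5 mice on 5% RPS and the 10 at the extremes (two-sided exact permutation p = 0.0669, adjusted p = 0.535). The permutation pooled the mice fed 0 and 10% RPS, so its p cannot tell a peak from a rise over 0% RPS alone. Without mouse 4 on 5% RPS, 2 members of the list had an unadjusted p under 0.05 and 12 lay above both extremes, and the median log2 comparison was 0.31. Without mice 4 and 5 on 10% RPS, the counts were 7 and 12, and the median was 0.36. The median difference from 10% RPS, 0.20 with all mice, was 0.02 without mouse 4 on 5% RPS. It was 0.05 without mice 4 and 5 on 10% RPS. Whether the muscle content of the sampled tissue had a part in these values was not tested.

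The collagen and fibroblast genes had the next highest count at an unadjusted p under 0.05. Of 18 members tested, 16 had values above 0 (47.1% of all genes) and 15 had a fitted mean above both extremes (25.7%), with 9 at an unadjusted p under 0.05 as higher (2.95%) and a median log2 comparison of 0.30. The median log2 difference of this list from 0% RPS was 0.43 and that from 10% RPS was 0.15. Fbn1, which encodes fibrillin-1 of microfibrils, had 17.2, 17.1, 21.6, 21.4, and 30.9 CPM with 5% RPS, 9.93, 9.20, 9.98, 8.56, and 9.81 CPM with 0% RPS, and 24.7, 29.3, 20.2, 11.3, and 13.6 CPM with 10% RPS. Fbn1 rose over 0% RPS with no overlap (log2 difference 1.19, edgeR adjusted p = 0.0425) and overlapped with 10% RPS. Col3a1 and Col1a1, the main fibrillar collagens of the gut wall, had log2 comparisons of 0.51 ± 0.17 and 0.56 ± 0.20 (SE), and Col5a1, a regulator of fibril diameter, 0.57 ± 0.17. Pdgfra and Mgp had values of -0.07 and -0.12.

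The summed collagen and fibroblast level was 1141, 1257, 1450.2, 1674, and 1607 CPM with 5% RPS, 1159, 1115, 888, 944, and 919 CPM with 0% RPS, and 1277, 1481, 1372, 1036, and 1083 CPM with 10% RPS. Mice 4 and 5 on 5% RPS were the highest of the 15. Leaving out either of these mice gave an exact permutation p of 0.0729 (mouse 4) and 0.0659 (mouse 5) in place of 0.0230. Without mouse 4 on 5% RPS, 5 members of the list had an unadjusted p under 0.05, 15 lay above both extremes, and the median was 0.28. Without mice 4 and 5 on 10% RPS, 5 members had an unadjusted p under 0.05 and 6 lay above both extremes. The median difference from 10% RPS was 0.11 without mouse 4 on 5% RPS and -0.0014 without mice 4 and 5 on 10% RPS.

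**Figure D4:**
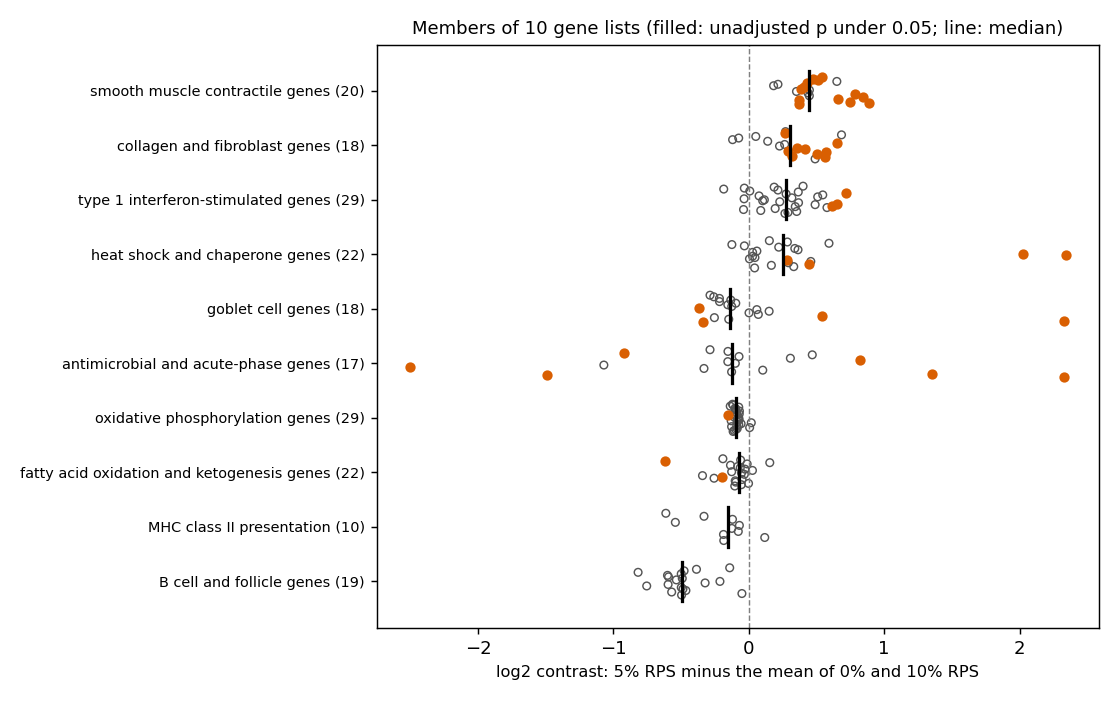
Log2 comparison of 5% RPS with the midpoint of 0 and 10% RPS for each tested member of 10 gene lists (number of members in parentheses), with filled points for an unadjusted p under 0.05 and a line at the median of each list. The smooth muscle list lies wholly above 0 (median 0.45) and the B cell list wholly below 0 (median -0.50).

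Heat shock genes gave the clearest case of a value set by 1 mouse. Hspa1a and Hspa1b, the stress-inducible copies of the chaperone HSP70, had the highest log2 comparisons of this list, 2.34 and 2.03. Hspa1a had 5.73, 5.64, 3.87, 101, and 3.58 CPM with 5% RPS, 12.5, 6.33, 8.37, 3.36, and 5.85 CPM with 0% RPS, and 2.09, 2.63, 3.29, 3.11, and 4.43 CPM with 10% RPS. Hspa1b had 19.5, 14.7, 23.6, 324, and 14.0 CPM with 5% RPS, and between 8.71 and 64.7 CPM at the extremes. Mouse 4 was far above all others for both genes, and without it the log2 comparisons were -0.01 for Hspa1a and -0.12 for Hspa1b. The 2 genes are near-identical copies, and reads could have been divided between them in counting. Of the 22 heat shock and chaperone genes tested, 20 had values above 0 (47.1% of all genes), 14 lay above both extremes (25.7%), and 4 had an unadjusted p under 0.05 as higher, against 2.95% of all genes (Hspa1a, Hspa1b, Dnajb4, and Cryab), with a median of 0.25. Without mouse 4 on 5% RPS, 0 had an unadjusted p under 0.05 in edgeR, 4 lay above both extremes, and the median was -0.05. The same mouse had the highest share of reads on mitochondrially encoded genes among these 15 mice, 15.4%, where the others had 8.998 to 13.0%.

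The windows of 250 bases before the transcription start are shown for both HSP70 genes, because they carry the largest values of the list and differ at few bases. They come from RefSeq on GRCm38.p6, on the minus strand, at chr17:34972157-34972406 (Hspa1a) and chr17:34959239-34959488 (Hspa1b). Capitals mark GAANNTTC, which holds inverted GAA units as in heat shock elements and reads the same on both strands, at bases -104 to -97 from the start in both genes.
Hspa1a: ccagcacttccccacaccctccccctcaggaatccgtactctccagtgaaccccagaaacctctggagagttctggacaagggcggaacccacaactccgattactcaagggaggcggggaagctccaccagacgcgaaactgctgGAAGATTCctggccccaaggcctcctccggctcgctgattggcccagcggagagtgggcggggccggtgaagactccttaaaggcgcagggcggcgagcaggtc
Hspa1b: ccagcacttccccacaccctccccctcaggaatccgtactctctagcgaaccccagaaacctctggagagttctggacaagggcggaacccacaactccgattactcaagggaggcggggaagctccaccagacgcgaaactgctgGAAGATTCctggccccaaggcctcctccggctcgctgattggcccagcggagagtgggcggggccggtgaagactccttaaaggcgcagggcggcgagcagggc

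The windows of Hspa1a and Hspa1b were identical at 247 of 250 bases. GAANNTTC was found in 7 of the 18 heat shock and chaperone genes with a window in the table (38.9%), among them Hspd1, Hspe1, Hspb1, and Dnaja1, against 7.73% of the 27025 genes of the table. Hspd1 and Hspe1, whose windows also hold it, had log2 comparisons of -0.03 and -0.13. A match of letters is a description and not a binding site.

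Type 1 interferon-stimulated genes had 25 of 29 values above 0 (47.1% of all genes) and 16 fitted means above both extremes (25.7%), with 3 at an unadjusted p under 0.05 as higher (2.95%) and a median of 0.28. The median difference from 10% RPS was 0.03 and that from 0% RPS was 0.52. Irf7, the transcription factor that amplifies interferon expression, had 140, 199, 253, 252, and 303 CPM with 5% RPS, 114, 120, 76.8, 153, and 91.5 CPM with 0% RPS, and 229, 256, 239, 116, and 120 CPM with 10% RPS. Mice 4 and 5 on 10% RPS were at the level of the controls, and mice 1 to 3 at that of the mice fed 5% RPS. The log2 comparison of Irf7 was 0.65 ± 0.23 (SE). Rsad2, the antiviral protein viperin, had 5.26, 4.32, 9.45, 10.4, and 9.42 CPM with 5% RPS and 1.95 to 7.84 CPM at the extremes, and Ifit3, an interferon-induced protein with tetratricopeptide repeats, had 3.86 to 7.55 CPM against 2.06 to 6.75 CPM. Both overlapped with each extreme. Without mice 4 and 5 on 10% RPS, 1 member of the list had an unadjusted p under 0.05, 5 lay above both extremes, and the median was 0.14. Without mouse 3 on 5% RPS, 1 member had an unadjusted p under 0.05, 13 lay above both extremes, and the median was 0.24. The median difference from 10% RPS turned to -0.125 without mice 4 and 5 on 10% RPS and to -0.05 without mouse 3 on 5% RPS.

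The windows of Rsad2 and Ifit3, members of this list with an unadjusted p under 0.05, are shown with GAAANNGAA, letters from the core of the interferon-stimulated response element, searched on both strands and marked by capitals. They are from RefSeq on GRCm38.p6, at chr12:26456453-26456702 on the minus strand for Rsad2 and chr19:34583279-34583528 on the plus strand for Ifit3.
Rsad2: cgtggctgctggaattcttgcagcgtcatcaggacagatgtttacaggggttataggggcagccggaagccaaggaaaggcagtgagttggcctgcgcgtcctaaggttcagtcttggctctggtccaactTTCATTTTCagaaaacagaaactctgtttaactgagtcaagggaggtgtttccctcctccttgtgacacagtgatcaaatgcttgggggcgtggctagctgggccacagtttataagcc
Ifit3: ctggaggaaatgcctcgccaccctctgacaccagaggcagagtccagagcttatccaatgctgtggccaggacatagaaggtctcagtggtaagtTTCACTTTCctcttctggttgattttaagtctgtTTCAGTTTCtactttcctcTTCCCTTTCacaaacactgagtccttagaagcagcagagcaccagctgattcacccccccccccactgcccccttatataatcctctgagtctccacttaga

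The letters lay at bases -119 to -111 in Rsad2, and at -155 to -147, -121 to -113, and -102 to -94 in Ifit3, on the other strand each time. They were found in 13 of the 21 list genes with a window (61.9%) and in 8.18% of all genes of the table, whereas Irf7 had no match in its window. Among the smooth muscle genes, a CArG box, the element bound by serum response factor, was found in 1 of 16 genes with a window (6.25%), against 1.62% of all genes. That gene was Myl9, which encodes a regulatory myosin light chain and had a log2 comparison of 0.39 ± 0.18 (SE).

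B cell and follicle genes had values below the midpoint. All 19 members had values below 0 (8124 of the 15348 genes tested) and all 19 had fitted means between the extremes (47.8% of all genes), with a median of -0.50. The median difference from 0% RPS was 0.45 and that from 10% RPS was -1.51, so the mice fed 5% RPS lay nearer the controls. Without mouse 4 on 5% RPS, 9 of the 19 had fitted means below both extremes, the median was -0.94, and the median difference from 0% RPS was 0.0027. Without mouse 3 on 5% RPS, 4 lay below both extremes and the median was -0.73. No member had an unadjusted p under 0.05 in edgeR (0 of 19), and standard errors were near 1 for most, for example 1.07 around -0.82 for Ms4a1, which encodes CD20. The summed level was 331, 209.7, 436, 512, and 203 CPM with 5% RPS, 300.3, 619, 222, 213, and 234 CPM with 0% RPS, and 612, 200.4, 766, 710, and 768 CPM with 10% RPS. Control mouse 2 was the highest of its group, and mouse 2 on 10% RPS, a separate animal, was the lowest of its group. The groups overlapped (two-sided exact permutation p = 0.315, adjusted p = 0.765). MHC class II presentation genes had 9 of 10 values below 0 (8124 of the 15348 genes tested) and a median of -0.16. All 10 fitted means lay between the extremes (47.8% of all genes). The T cell, NK cell, and intraepithelial lymphocyte genes had 22 of 25 values below 0, with a median of -0.21. Of these 25, 11 had fitted means below both extremes (26.5% of all genes), and the median difference from 0% RPS was -0.05. Neither of these lists had a member with an unadjusted p under 0.05 in edgeR. The MHC class II median was -0.30 without mouse 4 on 5% RPS (1 member below both extremes), -0.27 without mouse 3 (2 members), and -0.09 without mice 4 and 5 on 10% RPS. The median of the T cell list was -0.31 without either of mice 3 and 4 on 5% RPS.

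Plasma cell genes and immunoglobulin constant regions had 10 of 16 values above 0 (47.1% of all genes) and a median of 0.17. Of these, 1 member, Ighg1, was higher at an unadjusted p under 0.05 (2.95% of all genes). Without mouse 4 on 5% RPS that count was 0 in edgeR and the median was 0.04, and the count was 2 without mouse 3 and 0 without mice 4 and 5 on 10% RPS. Ighg1, the constant region of IgG1, had 15.3, 23.3, 20.05, 41.4, and 43.7 CPM with 5% RPS, 5.31, 10.7, 2.06, 7.12, and 1.26 CPM with 0% RPS, and 46.4, 17.4, 35.2, 17.9, and 49.3 CPM with 10% RPS. The mice fed 5 and 10% RPS overlapped and all exceeded the controls, and the log2 comparison was 1.12 ± 0.50 (SE). Macrophage and dendritic cell genes had 13 of 18 values above 0 (47.1% of all genes) and a median of 0.11. Of these, 1 member, Mrc1, was higher at an unadjusted p under 0.05 (2.95% of all genes). The median of the macrophage list was 0.03 without mouse 4 on 5% RPS and 0.06 without mouse 3, and the count was 0 without mice 4 and 5 on 10% RPS. Mrc1, the mannose receptor of tissue macrophages, averaged 10.6 ± 2.23 CPM with 5%, 7.66 ± 1.41 CPM with 0%, and 9.55 ± 1.44 CPM with 10% RPS.

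Antimicrobial and acute-phase genes spread to both sides, with 3 of the 17 members tested (22 in the table) higher (2.95% of all genes) and 3 lower (1.84%) at an unadjusted p under 0.05 and a median of -0.13. Without mouse 4 on 5% RPS the counts were 2 and 3 and the median was -0.02, and without mice 4 and 5 on 10% RPS they were 3 and 2 with a median of -0.04. Without mouse 3 on 5% RPS 2 members were lower. Ang4, an angiogenin with bactericidal activity that goblet and Paneth cells secrete, had 42.5, 78.2, 110, 189, and 141 CPM with 5% RPS, 34.7, 43.4, 9.72, 5.07, and 3.30 CPM with 0% RPS, and 31.7, 7.02, 54.7, 25.4, and 11.6 CPM with 10% RPS. Mice 2 to 5 on 5% RPS exceeded all mice of the extremes, and mouse 1 did not. The log2 comparison of Ang4 was 2.33 (95% interval 1.03 to 3.62, edgeR adjusted p = 0.922). Itln1, a lectin that binds microbial glycans, reached 3.996 CPM in mouse 4 on 5% RPS, while the other mice fed 5% RPS had 0.274 to 1.37 CPM and the extremes 0.269 to 0.941 CPM. Reg3b, a bactericidal C-type lectin, averaged 0.334 CPM with 5% RPS, 2.07 CPM with 0%, and 1.98 CPM with 10%, with a log2 comparison of -2.50 ± 1.08 (SE), and was named after its values were seen. Its level with 5% RPS is low and rests on few reads.

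Saa1, an acute-phase apolipoprotein, rose over 0% RPS (log2 difference 1.62, edgeR adjusted p = 0.0426) and stayed at that level. It had 189, 316, 172, 279, and 337 CPM with 5% RPS, 150, 73.6, 57.1, 76.1, and 64.0 CPM with 0% RPS, and 259, 422, 289, 134, and 173 CPM with 10% RPS. Each mouse fed 5% RPS was above each control, and mouse 4 on 10% RPS lay within the control range.

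Within the goblet cell genes, Clca1 and Ang4 were at an unadjusted p under 0.05 as higher (2.95% of all genes) and Agr2 and Krt7 as lower (1.84%), and the median of 18 members was -0.14. No goblet cell gene was lower at that p without mouse 3 on 5% RPS or without mice 4 and 5 on 10% RPS (0 each in edgeR), 6 were lower with only the 15 mice in the fit, and 1 was higher without mouse 4 on 5% RPS. The median was -0.08 without mice 4 and 5 on 10% RPS. Clca1, a metalloprotease of the mucus layer, had 1213, 1477, 1356, 2603, and 1693 CPM with 5% RPS, 1661, 1833, 1035, 1137, and 1219 CPM with 0% RPS, and 980, 905, 1083, 1104, and 703 CPM with 10% RPS. The mice fed 5% RPS were all above those fed 10% RPS and overlapped with the controls. Agr2, a disulfide isomerase needed for mucin folding, averaged 273 ± 37.2 CPM with 5%, 388 ± 70.6 CPM with 0%, and 306 ± 55.0 CPM with 10% RPS. Muc2, the main mucin of the large intestine, had a log2 comparison of -0.13 ± 0.20 (SE).

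**Figure D5:**
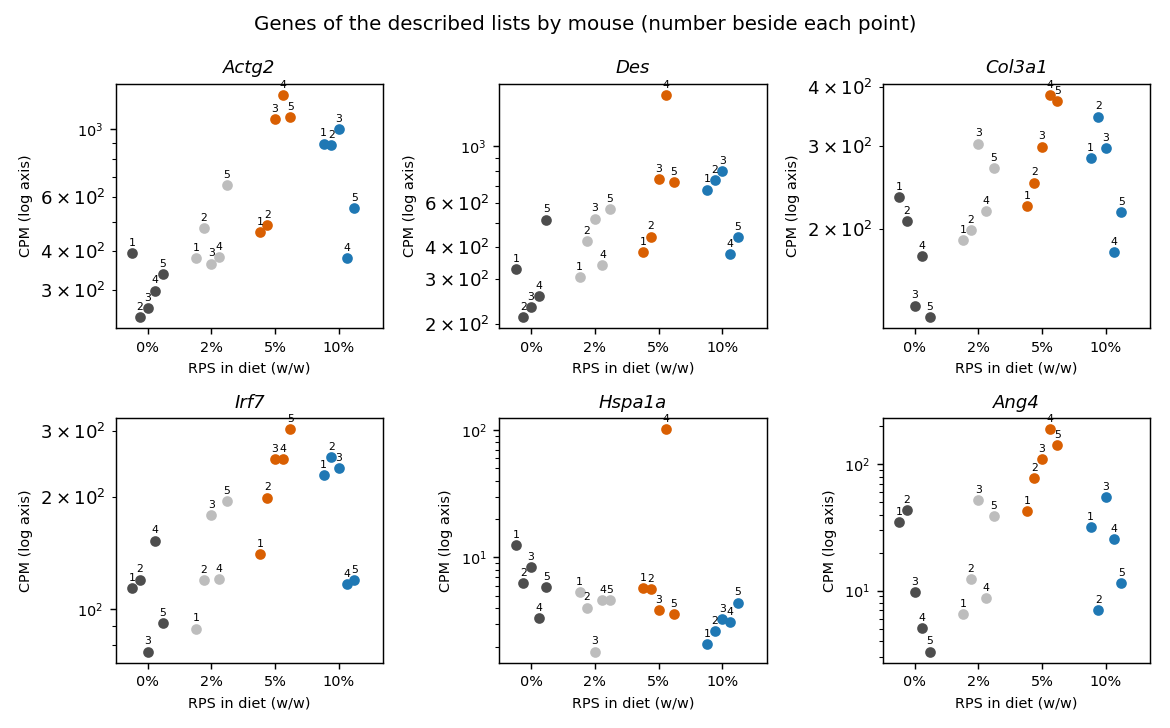
CPM on a log axis of 6 genes in each mouse by the RPS level of the diet, with the number of the mouse beside its point. Mouse 4 on 5% RPS stands alone for Hspa1a at 101 CPM, and mice 4 and 5 on 10% RPS lie below mice 1 to 3 of their group for Actg2, Des, Col3a1, and Irf7.

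Of 29 oxidative phosphorylation genes, 27 had values below 0 (8124 of the 15348 genes tested) and 25 had fitted means between the extremes (47.8% of all genes). The median was -0.10, and -0.06 without mouse 4 on 5% RPS. Fatty acid oxidation and ketogenesis genes had 20 of 22 values below 0 (8124 of the 15348 genes tested), with a median of -0.07. At an unadjusted p under 0.05, 2 members were lower (1.84% of all genes), among them Pdk4. That count was 0 in edgeR without mouse 4 and also without mouse 3 on 5% RPS, and 1 without mice 4 and 5 on 10% RPS. Pdk4, a kinase that restrains pyruvate oxidation, had a log2 comparison of -0.62 ± 0.29 (SE). Pdk4 had 73.7, 66.4, 56.3, 25.3, and 29.2 CPM with 5% RPS and 97.5 to 182 CPM with 0% RPS, and overlapped with the 31.2 to 66.2 CPM of the mice fed 10% RPS. The mitochondrially encoded genes had 12 of 13 values above 0 (47.1% of all genes), a median of 0.18, and 0 members at an unadjusted p under 0.05 in edgeR. Mouse 4 on 5% RPS had the highest share of such reads as given above. Without that mouse the median was 0.014, 2 members lay above both extremes in place of 8, and 1 member was higher at an unadjusted p under 0.05.

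Of the lists described next, the members higher at an unadjusted p under 0.05 (2.95% of all genes) were 2 of 16 stem cell and Wnt target genes, 2 of 19 absorptive colonocyte genes, 2 of 28 cytochrome P450 and conjugation genes, and 1 each of 15 enteroendocrine, 13 short-chain fatty acid transport and sensing, and 13 epithelial oxidase and nitric oxide genes. Those lower at that p (1.84% of all genes) were 2 cytochrome P450 and conjugation genes and 2 of 23 immediate early genes. Slc26a3, the chloride and bicarbonate exchanger of the colonic surface, averaged 1826 ± 374 CPM with 5% RPS, 1202 ± 167 CPM with 0%, and 1833 ± 412 CPM with 10%. Sult1a1, a phenol sulfotransferase, averaged 767.5 ± 71.0 CPM with 5% RPS, 640.5 ± 18.8 CPM with 0%, and 636 ± 63.2 CPM with 10%, and had nearly the same mean at both extremes. Rnf43 and Axin2, feedback inhibitors of Wnt signaling, had log2 comparisons of 0.25 ± 0.08 and 0.31 ± 0.15 (SE), and mouse 4 on 5% RPS was the highest of these 15 mice for both (34.0 and 24.9 CPM). Cpe, the prohormone-processing carboxypeptidase of enteroendocrine cells, averaged 147 ± 14.0 CPM with 5%, 110.0 ± 20.1 CPM with 0%, and 134.5 ± 15.3 CPM with 10% RPS. Noxa1, an activator of the epithelial oxidase NOX1, averaged 61.8 ± 7.78 CPM with 5%, 42.9 ± 3.32 CPM with 0%, and 64.5 ± 12.4 CPM with 10% RPS. Btg2, an antiproliferative immediate early gene, and the cytochrome P450 genes Cyp4f14 and Cyp2c68 had log2 comparisons of -0.32, -0.33, and -0.47.

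These counts moved in edgeR fits with fewer mice. With mouse 4 on 5% RPS left out, 0 stem cell and Wnt target genes and 0 enteroendocrine genes were higher, 3 absorptive colonocyte genes were higher, and 1 cytochrome P450 gene and 1 immediate early gene were lower. Without mouse 3 on 5% RPS, 0 enteroendocrine and 0 epithelial oxidase genes, 1 stem cell gene, and 3 absorptive colonocyte genes were higher, and 0 cytochrome P450 genes and 1 immediate early gene were lower. Without mice 4 and 5 on 10% RPS, 0 enteroendocrine and 0 short-chain fatty acid genes, 1 stem cell gene, and 1 absorptive colonocyte gene were higher, and 0 cytochrome P450 genes and 1 immediate early gene were lower.

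The medians of the lists that held those genes are given here with their lowest and highest values over 3 fits, without mouse 3 on 5% RPS, without mouse 4 on 5% RPS, and without mice 4 and 5 on 10% RPS. They were 0.11 for enteroendocrine (0.05 to 0.16), 0.08 for stem cell and Wnt target (0.07 to 0.09), 0.06 for short-chain fatty acid transport and sensing (0.02 to 0.14), and -0.06 for absorptive colonocyte genes (-0.05 to -0.02). The median was -0.05 for cytochrome P450 and conjugation (-0.04 to 0.04, above 0 without mouse 4 on 5% RPS), -0.13 for immediate early (-0.19 to -0.09), and 0.15 for epithelial oxidase and nitric oxide genes (0.07 to 0.17).

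Lists with 0 members at an unadjusted p under 0.05 in edgeR, beside those already given, had medians with the following values and ranges over the same 3 fits. The medians were 0.09 for the interferon-gamma GTPases (0.0056 to 0.12), 0.08 for tuft cell genes (0.014 to 0.20), -0.03 for cell cycle genes (-0.08 to -0.0036), -0.08 for enteric neuron and glia genes (-0.09 to -0.0058), and 0.10 for endothelial genes (0.03 to 0.13). Adipocyte genes had a median of 0.08 (-0.14 to 0.53), which was below 0 without mouse 3 or mouse 4 on 5% RPS. Circadian clock genes had -0.02 (0.0032 to 0.04), above 0 in all 3 fits, and unfolded protein response genes -0.02 (-0.06 to 0.04), below 0 only without mouse 4 on 5% RPS. Cholesterol and fatty acid synthesis genes had 0.03 (0.06 to 0.09). In these lists and fits, 1 interferon-gamma GTPase without mouse 4 on 5% RPS and 1 cholesterol and fatty acid synthesis gene without mouse 3 were at an unadjusted p under 0.05. Of 18 neutrophil, eosinophil, and mast cell genes, 8 were tested, with a median of 0.14 (0.017 to 0.26) and 1 member, Ly6g, lower at an unadjusted p under 0.05 (1.84% of all genes). Of these 8, 6 had values above 0 (47.1% of all genes). Muscle, fibroblast, interferon, and heat shock genes held the highest medians among lists with more than 5 members tested, with the heat shock median at -0.05 without mouse 4 on 5% RPS, and none of their members passed the edgeR threshold. The 5 tested blood and pancreas markers had a median of 0.46. The 4 globin genes, Hba-a1, Hba-a2, Hbb-bs, and Hbb-bt, had log2 comparisons of 0.55, 0.48, 0.38, and 0.46, and Cela1, an elastase gene, had -0.03. No marker was at an unadjusted p under 0.05 in edgeR (0 of 5), and 1 was without mouse 3 on 5% RPS and with only the 15 mice. The sum of the set was 61.4 ± 9.67 CPM with 5% RPS, of which Cela1 made up 47.6 CPM, against 62.0 ± 7.95 CPM with 0% and 56.4 ± 3.06 CPM with 10%.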

How the data were processed

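RNA from the cecum of 20 mice was measured by poly(A) RNASeq with stranded single-end libraries. The authors deposited raw read counts per gene and mouse, mapped to GRCm39 in CLC Genomics Workbench. The annotation release, the handling of reads that fit several genes, and the use of strand in counting are not given in the sources used here. Of 19887 genes, 1354 had 0 counts in all mice, and 0 columns of values were left out. Diets came from the treatment label, and mice are numbered 1 to 5 in the order of their label numbers, which differ between diets. Counts were filtered with filterByExpr (minimum count 10, minimum total 15), scaled by TMM (factors 0.916 to 1.07), and fitted with 1 mean per diet by edgeR 4.0.16 with robust quasi-likelihood in R 4.3.3. The test was 5% RPS against the mean of 0 and 10% RPS, weighted 0.5 each, with Benjamini-Hochberg adjustment over 15348 genes. Past the threshold means an adjusted p of at most 0.05 and a fold change of at least 1.5. CPM values are TMM-scaled. Single measures were compared by two-sided exact permutation over 3003 assignments (Python 3.11.15, scipy 1.17.1, numpy 2.4.6), with a smallest p of 0.000333. It pooled the mice fed 0 and 10% RPS into 1 group. The scripts were tested on simulated data. Some items are not reported here.

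With no gene past the threshold, the named genes were the 10 with the smallest p in each direction with a 5% mean outside both extremes, 5 in each direction between them, up to 4 per list with an unadjusted p under 0.05, and the 4 with the smallest p among those past the threshold for 10 against 0% RPS. Hsd11b1, Hivep3, 1700102P08Rik, Reg3b, and list members named with values only were added after values were seen. The comparison, the members, and the 32 lists were chosen with earlier results of these data known. The alternatives were DESeq2 size factors, DESeq2 1.42.0's Wald test, no filter, at least 10 counts in every mouse, no robust step, only the 15 mice, the mean of 2 and 5% RPS, a quadratic term, 1 surrogate variable (sva 3.50.0), immunoglobulin genes left out, no fold criterion, and each of the 15 mice left out. A fit without mice 4 and 5 on 10% RPS, whose label numbers (748 and 752) lie apart from 729 to 732, was added after seeing the data. Gene coordinates are from GENCODE M39, in which 19827 identifiers were found. At the depth of these libraries, values under 3 reads were taken as at the limit of detection, for counting error only.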

Additional observations from a re-analysis of the deposited data

Results flagged for a closer look

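Within each diet of 5 mice, the gap of the highest or lowest mouse to its neighbor was divided by the range and compared with Dixon's 95% critical value, in 234 sets of 5 mice for the named genes and single measures. For independent, normally spread values a gap above that value is found in about 1 in 20 sets, or 11.7. The sets here are in CPM and some share genes, so that number is only a guide. Such a gap was found 20 times (8.55%), 1 time at the low end. Mouse 4 on 5% RPS was the highest in 4 of them, with 101 CPM against at most 5.73 CPM in the other mice for Hspa1a (ratio 0.978), 324 against 23.6 CPM for Hspa1b (0.969), 34.0 against 26.6 CPM for Rnf43 (0.756), and 12456 against 9148 CPM for the summed goblet cell genes (0.912). The other high values with 5% RPS were mouse 3 for Ighv1-82 (0.787) and mouse 1 for Cyp2j6 (0.713) and Fer1l4 (0.719).

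With 10% RPS, mouse 3 was apart for Ighv1-82 (0.859), mouse 4 for Apoa4 (0.748), the summed goblet cell genes (0.754), and the summed adipocyte genes (0.722), and mouse 2 was low for the summed B cell and follicle genes (200.4 CPM against 612 to 768 CPM, ratio 0.725). In the controls, mouse 2 was high for the summed B cell and follicle genes (619 against at most 300.3 CPM, ratio 0.784) and the summed T cell, NK cell, and intraepithelial lymphocyte genes (0.852). Control mouse 3 was high for Rbp2 (0.71) and Plin2 (0.772), mouse 1 for Saa1 (0.794) and Hspa1b (0.779), mouse 4 for Ifit3 (0.734), and mouse 5 for the summed smooth muscle genes (0.722).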

How the results depend on the processing

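Under every alternative except 3, 0 genes passed the edgeR or DESeq2 threshold for 5% RPS against the midpoint in either direction. The exceptions were DESeq2's Wald test (3 higher and 3 lower) and leaving out single mice, which gave 0 to 1 higher genes and 0 lower genes (Pla2g4c without mouse 1 on 5% RPS, Ighv1-82 without mouse 3 on 10% RPS). Genes lower than each extreme, 16 in the model as reported, numbered 27 with DESeq2's test, 27 with no filter, 28 with only the 15 mice, and 28 with 1 surrogate variable. With the mean of 2 and 5% RPS in place of 5%, there were 205 higher and 161 lower genes at an unadjusted p under 0.05, and 12 and 3 genes higher and lower than each extreme. Without mice 4 and 5 on 10% RPS these numbers were 250, 130, 13, and 9. With each mouse left out, genes at an unadjusted p under 0.05 ranged from 295 (mouse 5 on 5% RPS) to 675 higher, genes higher than each extreme between 21 (when mouse 5 on 10% RPS was dropped) and 73, and genes lower than each extreme between 8 (when mouse 4 on 10% RPS was dropped) and 43, where 73 and 43 both came from dropping mouse 1 on 5% RPS. The cause was not tested, apart from the fewer mice in these fits. The log2 comparison turned in sign for 2 named genes, without mouse 4 on 5% RPS, with ranges over the mice left out of -0.012 to 2.62 for Hspa1a and -0.12 to 2.34 for Hspa1b. No paired analysis was possible because the mouse numbers differ between diets. Depth limits Apoa4, Defb37, and Ly6g, which had from 0 to 12 reads per mouse with 5% RPS. It also limits Hsd11b1 and Reg3b, which averaged under 1 CPM with 5% RPS and whose reads per mouse are not given here.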

Other observations

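Mice 4 and 5 on 10% RPS had summed smooth muscle levels of 6319 and 7118 CPM and summed collagen and fibroblast levels of 1036 and 1083 CPM, below the other mice of their diet in both. These are also the mice whose label numbers lie apart from the rest of the group, and a batch by number cannot be told apart from the mice themselves, since no other diet holds such numbers. Leaving out mouse 1 or mouse 2 on 5% RPS, or mouse 3 on 10% RPS, gave exact permutation p values of 0.0310, 0.0380, and 0.0365 for the smooth muscle sum, and leaving out control mouse 5 gave 0.0250 for the mitochondrial share, none adjusted over the 16 measures.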
